A study of Mus musculus with 2 samples.

Results

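The genes described here are 9 genes of lipid transport: the apolipoproteins Apoe, Apoc1 and Apoc2, the phospholipid transfer protein Pltp, the lipid exporters Abca1 and Abcg1, the lipoprotein lipase Lpl, the fatty acid carrier Fabp5 and the lipid-sensing receptor Trem2. They were taken by symbol from the 32285 genes of a single-cell RNA-seq library of the mouse thymus, and all 9 had counts. Cells of the thymus of adult C57BL/6 mice (C57BL/6J in the series design) had been sorted for surface CD64, an Fc receptor of macrophages and many monocytes, and the labels name them macrophages. No genotype, treatment, sex, exact age or number of animals is given. The labels describe 2 libraries of this 1 group, from 2021 and from 2024. Only the 2021 library was used at gene level, since no gene names were used for the 2024 library, and barcodes shared between the libraries were not analysed here. All values below are therefore from 1 library without a replicate check. They carry exact 95% intervals that cover counting error only, and no test between groups was possible.

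Lipoproteins carry cholesterol and triglyceride between cells, and their surface apolipoproteins decide which receptors and enzymes they meet. Macrophages take up lipid with dying cells and return cholesterol to lipoproteins through ABC transporters, whose genes are classical targets of the liver X receptors. In the thymus most developing T cells die and are cleared by phagocytes.

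By gene ID all 9 genes were matched to the GENCODE vM21 annotation of GRCm38, the assembly that the submitters' processing notes name as mm10. Apoe (ENSMUSG00000002985, chr7:19696109-19699188), Apoc1 (ENSMUSG00000040564, chr7:19689481-19692660) and Apoc2 (ENSMUSG00000002992, chr7:19671579-19677941) lie on the minus strand of chromosome 7 within 27.6 kb, with Apoc4 between Apoc1 and Apoc2. Abca1 (ENSMUSG00000015243) lies at chr4:53030787-53159895 on the minus strand, and Pltp (ENSMUSG00000017754) at chr2:164839518-164857711 on the minus strand. Abcg1 (ENSMUSG00000024030, chr17:31057675-31117988) and Trem2 (ENSMUSG00000023992, chr17:48346401-48354147) are both on the plus strand of chromosome 17. Lpl (ENSMUSG00000015568, chr8:68880491-68907448) and Fabp5 (ENSMUSG00000027533, chr3:10012548-10016607) are on the plus strands of chromosomes 8 and 3. Of the 9 genes, 1 overlaps another counted gene: Pltp overlaps Ctsa on the opposite strand, and the strand setting of the counting is not given in the sources used here. The annotation also holds a processed pseudogene of Fabp5 that is not among the counted genes. How reads that fit both places were counted was not tested.

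RefSeq promoter entries (GRCm38.p6) were found for 5 of the 9 genes. The 250 bases before the annotated start are shown for the 3 that matched a nuclear receptor pattern. Both strands were searched for the nuclear receptor hexamer AGGTCA and for a relaxed DR4 pattern, the direct repeat of 2 such hexamers that liver X receptors bind, and the patterns can overlap. The AP-1 pattern TGANTCA, the TATA box TATAAA and a PU.1 pattern were searched as well. Capitals mark the DR4 match in Abca1 (chr4:53159896-53160145, minus strand) and the hexamer in Apoc2 (chr7:19677942-19678191, minus strand) and Trem2 (chr17:48346151-48346400, plus strand).
Abca1: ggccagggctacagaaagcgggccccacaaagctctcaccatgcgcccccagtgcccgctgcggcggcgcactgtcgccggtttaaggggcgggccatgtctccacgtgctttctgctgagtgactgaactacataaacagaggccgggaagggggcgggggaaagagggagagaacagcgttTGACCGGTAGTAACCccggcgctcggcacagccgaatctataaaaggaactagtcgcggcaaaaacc
Apoc2: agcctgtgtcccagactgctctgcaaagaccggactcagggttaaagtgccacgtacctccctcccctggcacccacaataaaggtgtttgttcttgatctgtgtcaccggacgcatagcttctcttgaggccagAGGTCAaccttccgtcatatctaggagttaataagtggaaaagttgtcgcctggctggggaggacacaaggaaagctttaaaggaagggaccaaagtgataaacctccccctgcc
Trem2: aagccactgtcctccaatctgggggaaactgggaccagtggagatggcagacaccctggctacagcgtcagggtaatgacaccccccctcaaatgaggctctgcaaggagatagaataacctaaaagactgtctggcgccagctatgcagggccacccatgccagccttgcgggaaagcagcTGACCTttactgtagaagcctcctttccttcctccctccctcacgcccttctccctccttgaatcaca
The DR4 match of Abca1 begins 67 bases before the start and reads on the opposite strand, and 0.163% of 27025 promoters of the same length hold such a match. The hexamer, which 13.8% of them hold, begins 115 bases before the start of Apoc2 and, on the opposite strand, 68 bases before that of Trem2. Trem2 also has the AP-1 pattern 9 bases before its start (6.87% of promoters), and Abca1 a TATA box 29 bases before its own (13%). An Apoe window inside the annotated gene (chr7:19698622-19698871) also holds the TATA letters, 100 and 96 bases before the internal start it belongs to. The Apoe window just before the annotated gene (chr7:19699189-19699438) holds no TATA match. The hexamer and DR4 patterns were not found in these windows of Apoe or Pltp, nor was the PU.1 pattern (2.44%) in any of the 5 genes' windows. A match describes letters, not binding.

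The library held 3214 barcodes with a median of 2157.5 UMIs (unique molecular identifiers, each 1 counted transcript molecule). Of these, 3185 were kept, at a median of 2169 UMIs, and grouped into 19 clusters without use of the 9 genes. The clusters were named from markers that do not include the 9. Against the label, 276 cells (8.67%) were macrophage-like by C1qa, C1qb, C1qc, Mertk and others, and the rest were mostly monocyte-like (576 cells), conventional dendritic cell (DC)-like (703), mature DC-like (116), neutrophil-like (486), T lineage-like (386), NK and ILC-like (295) and B lineage-like (211). The macrophage-like cells formed an iron-handling cluster (74 cells: Spic, Vcam1, Slc40a1, Cd163) and a larger second cluster (202 cells: Pf4, Ccl12, Ccl8). The name iron-handling rests on leading genes only. Of the iron-handling markers, the second cluster also raised Vcam1, Slc40a1, Hmox1, Mertk, Hpgd, Fcna and Hebp1 over all other kept cells. Where classes came from UMIs of fixed genes, 153 cells were iron-handling. The monocyte-like cells comprised a cluster with nonclassical markers (196 cells: Ace, Treml4) and 380 cells with classical markers, in a cluster led by F13a1 and one led by Cxcl9 and Cxcl10. The place of the Cxcl9 cluster was not stable. With the stricter filter, with doublets kept, without the cells of the highest doublet scores, and at resolutions 0.5 and 1.5, between 97 and 110 of its 115 cells fell into the macrophage-like class, which then held 356 to 383 cells. Classes from UMIs of fixed genes put 24 of them there, among 389 cells. With the stricter filter the class held 183 of the 276 cells, and the others were filtered out or classed elsewhere.

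Among the classes, 7 of the 9 genes were highest in macrophage-like cells, Apoc2 was highest in monocyte-like cells and Fabp5 in mature DC-like cells. Levels are given as CPM, in which a gene's summed UMIs are divided by the total of those cells and multiplied by 1000000. Compared with all other kept cells, 8 of the 9 genes were at least 2-fold higher in macrophage-like cells (on log2 of CPM plus 10), against a background of 5.78% of 11126 genes, and 0 were at least 2-fold lower, against 2.33%. Their median log2 ratio was 2.78, and that of all genes 0.09. Apoe stood at 14347 CPM (95% interval 14088 to 14610, 11652 UMIs) in macrophage-like cells and 651 in the rest, 22.0-fold higher (21.3 to 22.8). Apoc1 stood at 1040.4 CPM against 42.2, 24.6-fold higher (21.6 to 28.1). Those cells, 8.67% of the total, held 69.9% of all Apoe UMIs and 72.2% of all Apoc1 UMIs.

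The exporter Abca1 was 12.7-fold higher in macrophage-like cells than in the rest (189.6 against 14.9 CPM), Lpl 12.5-fold (181 against 14.4), Pltp 9.03-fold (249 against 27.6) and Trem2 7.75-fold (77.6 against 10.0). Apoc2 (166 against 51.6 CPM, 3.22-fold) and Abcg1 (209 against 71.2 CPM, 2.94-fold) were less restricted. Fabp5 was level, at 623 CPM in macrophage-like cells and 607 in the rest (ratio 1.03, 0.935 to 1.12). Mature DC-like cells held 2212 of the 4667 Fabp5 UMIs of that rest. Each other class was below the macrophage-like level, from 574 CPM in monocyte-like cells to 63.6 in NK and ILC-like cells. The monocyte-like interval overlapped that of macrophage-like cells. With a stricter cell filter the macrophage-like class held 369 cells, its Apoe level was 8232 CPM, and the count was 7 of 9, since the Apoc2 log2 ratio dropped to 0.83.

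**Figure D1:**
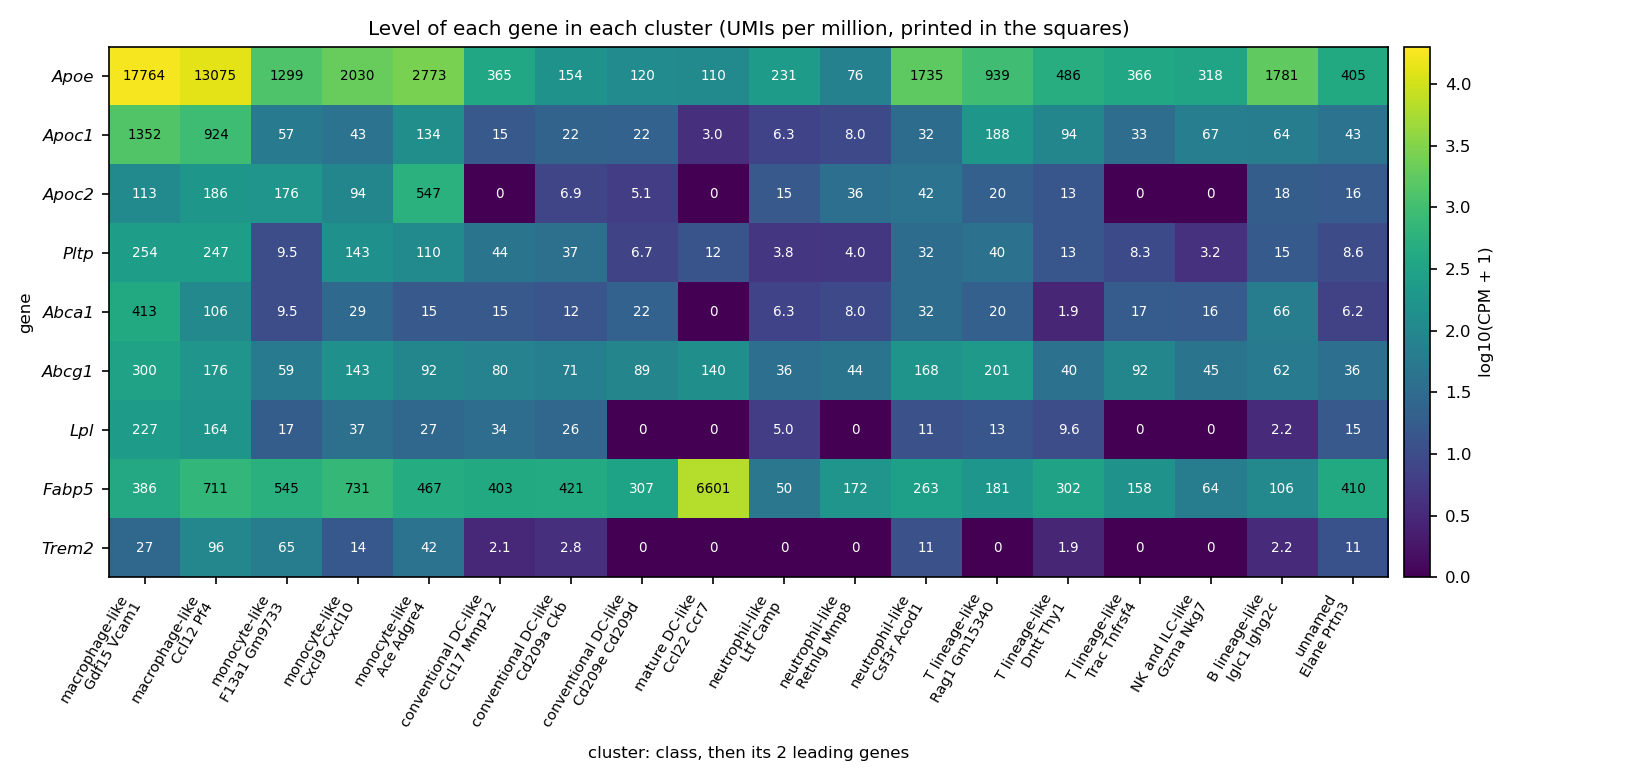
Level of each of the 9 genes (rows) in each of the 18 clusters of at least 20 cells (columns), as CPM printed in each square and as colour on a log10 scale. Apoe reaches 17764 and 13075 CPM in the macrophage-like columns, Apoc2 peaks at 547 in the nonclassical monocyte-like column and Fabp5 at 6601 in the mature DC-like column.

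**Figure D2:**
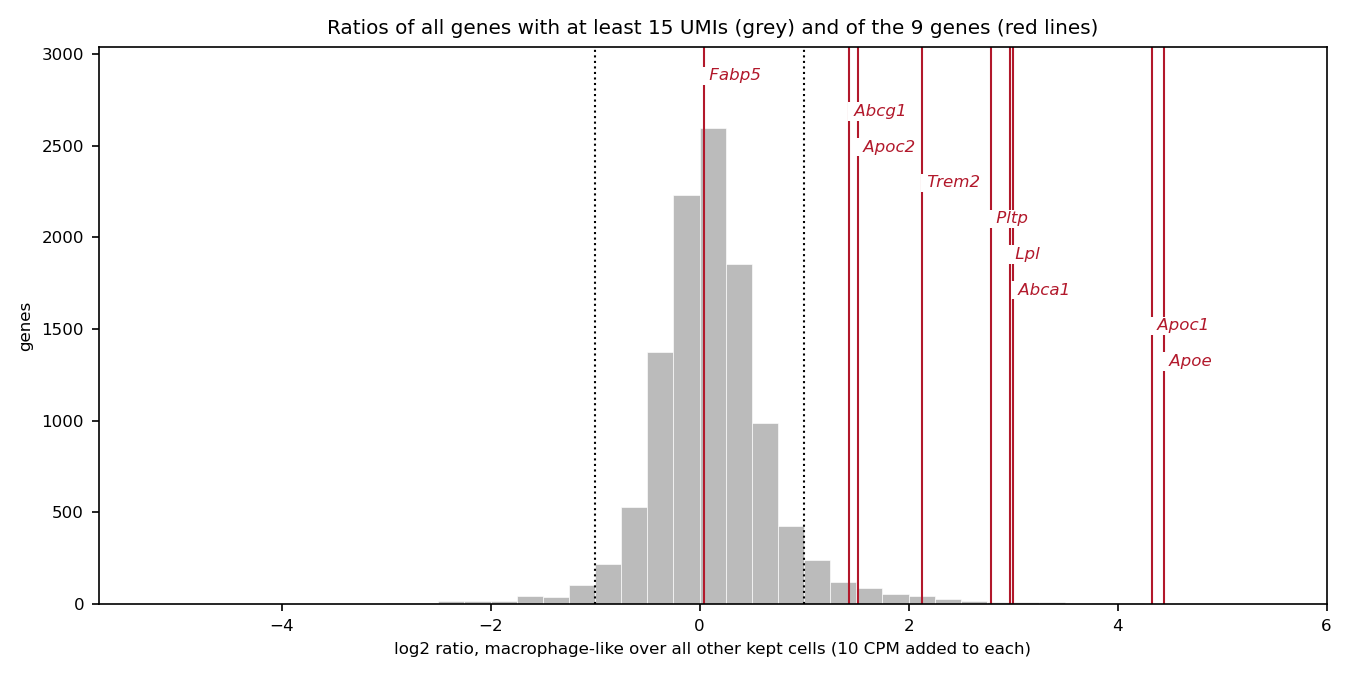
Histogram of the log2 ratio of macrophage-like over all other kept cells for 11126 genes (10 CPM added to each side), with a red line for each of the 9 genes and dotted lines at the 2-fold limits. Fabp5 lies in the middle of all genes, and the other 8 lie beyond the upper limit, up to 4.44 for Apoe.

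Against monocyte-like cells alone, 6 of the 9 genes were at least 2-fold higher in macrophage-like cells (background 7.03% of 8092 genes), and 0 were lower (1.32%). The widest ratios were those of Apoc1 (14.3-fold, 11.6 to 17.8), Abca1 (11.9-fold, 7.52 to 19.8) and Apoe (7.67-fold, 7.35 to 8.02), followed by Lpl (7.23-fold), Pltp (3.52-fold) and Abcg1 (2.34-fold). Trem2 was 1.70-fold higher (1.18 to 2.47), Fabp5 was similar (1.08, 0.967 to 1.22), and Apoc2 was lower (0.668, 0.542 to 0.818). Apoc2, Fabp5 and Trem2 were thus the 3 genes whose levels in monocyte-like cells came within 2-fold of the macrophage-like level or passed it.

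Apoe, the ligand through which remnant lipoproteins bind their receptors, was detected in most macrophage-like cells. In cells thinned to 2000 UMIs, which removes differences in depth, 165 of 175 macrophage-like cells held Apoe (94.3%, 89.7 to 97.2; 96.0% unthinned). In the 5 settings in which most of the Cxcl9 cluster joined the class, the share was 75.8% to 87.0%. The quartiles were 9, 20 and 40.5 UMIs per cell, and the highest cell had 154. The same thinned share was 54.1% in monocyte-like, 48.8% in B lineage-like, 29.8% in T lineage-like, 17.8% in mature DC-like, 15.2% in neutrophil-like and 11.7% in conventional DC-like cells. The shares of monocyte-like and B lineage-like cells were above those of neutrophil-like and T lineage-like cells. However, the intervals of B lineage-like (37.6 to 60.1) and T lineage-like cells (21.6 to 39.1) overlapped. Within the T lineage-like class the Rag1 cluster held Apoe in 10 of 17 thinned cells (58.8%, 32.9 to 81.6), an interval that spans the monocyte-like and B lineage-like shares. Those 17 are its deepest cells, since 138 of its 155 cells were too shallow to be thinned. Unthinned, at unequal depths, its share was 27.7%, against 64.1% in monocyte-like and 56.9% in B lineage-like cells.

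Within the macrophage-like cells, Apoe was 17764 CPM (17212 to 18329) in the iron-handling cluster and 13075 (12785 to 13370) in the second cluster, a ratio of 1.36 (1.31 to 1.41). The size of this ratio depended on the processing. Its log2 value, 0.44 here, ran from 0.37 with centring to 1.67 with the stricter cell filter. All 48 thinned cells of the iron-handling cluster had Apoe. The second cluster, divided again after its values had been seen, gave 4 sub-clusters. Apoe was 15099 CPM in 101 cells with Fcna, Itgad and Ccl8 among their leading genes, and 14034 CPM in 66 cells with Ccl12, Oasl1 and Ccl4. It was 7974 CPM in 23 cells with Slpi, Saa3 and Prg4, 3 of which held 407 of its 638 UMIs, and 6087 CPM in 12 cells that also carried T and NK genes. Without those 12 cells, Apoe in the macrophage-like class was 14783 CPM.

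Apoc1, a small apolipoprotein that inhibits lipoprotein lipase and lipid transfer in plasma, did not follow Apoe among these cells. It was 1697 CPM (1532 to 1876) in the Fcna sub-cluster and 261 CPM (201 to 334) in the Ccl12 sub-cluster, where Apoe was nearly as high. Per 100 Apoe UMIs there were 11.2 Apoc1 UMIs (10.1 to 12.5) in the Fcna sub-cluster, 7.61 (6.74 to 8.57) in the iron-handling cluster and 1.86 (1.43 to 2.38) in the Ccl12 sub-cluster. Set against all other cells of the second cluster, the Apoc1 to Apoe ratio of the Ccl12 sub-cluster was 0.166 (0.125 to 0.217).

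The ratio was also low in the Slpi sub-cluster, at 2.66 per 100, and high in the 12 cells with T and NK genes, at 33.1, where 1 cell held 51 of the 82 Apoc1 UMIs. Redrawing the sub-clusters in 2 other ways gave relative ratios of 0.119 and 0.122. Ccl12 UMIs alone gave a smaller difference: macrophage-like cells with at least 3 Ccl12 UMIs had 5.90 Apoc1 per 100 Apoe UMIs and the others of that cluster 7.40, a relative ratio of 0.797 (0.632 to 0.998). Over all 175 thinned macrophage-like cells, Apoe and Apoc1 were found together in 74 cells, where 70.7 were expected from their separate frequencies. Since 165 of the 175 cells held Apoe, these counts could hardly differ and do not tell whether the genes go together. The Spearman rho of Apoe and Apoc1 was 0.25, over cells of 1 library.

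**Figure D3:**
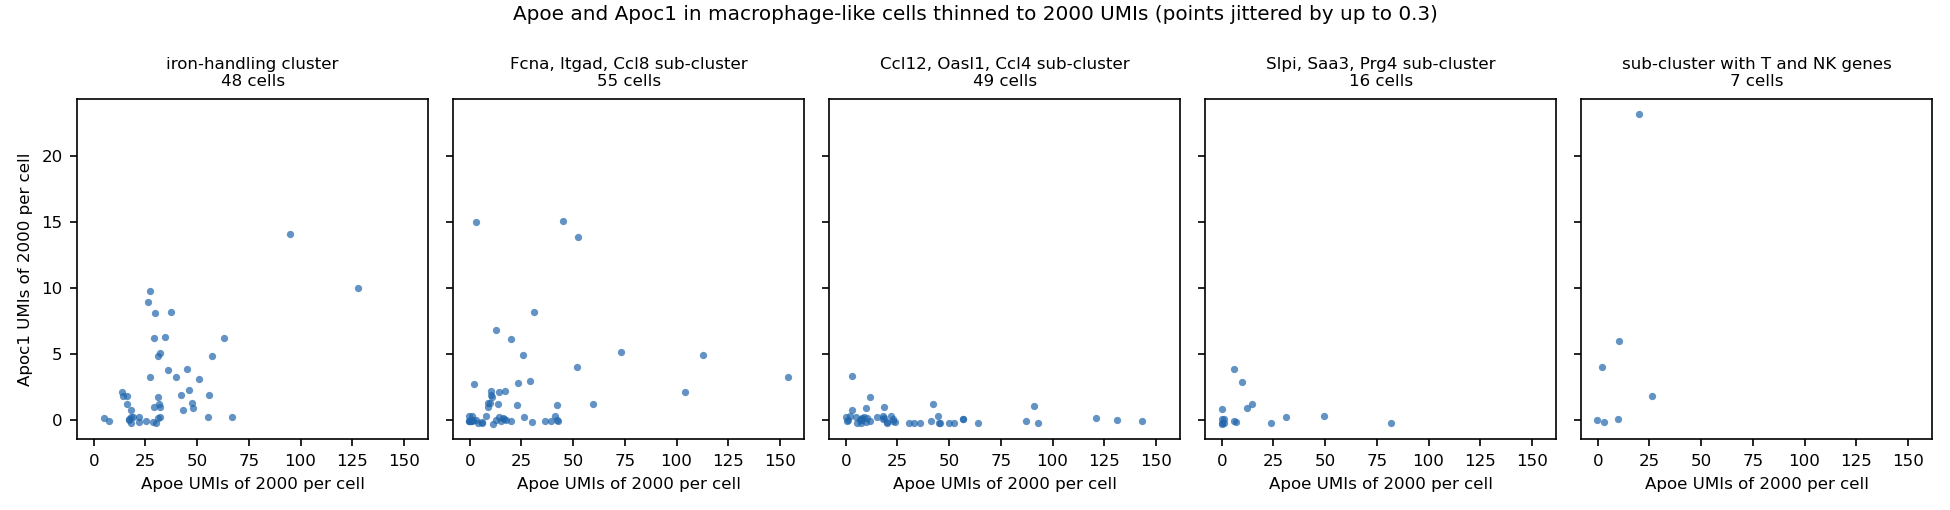
Apoe UMIs (horizontal) and Apoc1 UMIs (vertical) of single macrophage-like cells thinned to 2000 UMIs, in 1 panel for the iron-handling cluster and 1 for each sub-cluster of the second cluster, each point a cell, moved at random by up to 0.3 UMIs so that points do not hide each other. Cells of the Ccl12 sub-cluster spread along the Apoe axis up to high values while their Apoc1 stays near 0, whereas the iron-handling cluster and the Fcna sub-cluster hold cells with both.

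Outside the macrophage-like class, Apoe was highest in the nonclassical monocyte-like cluster, at 2773 CPM (2598 to 2957), followed by the Cxcl9 cluster at 2030 CPM (1884 to 2185), B lineage-like cells at 1781 CPM (1660 to 1908), a neutrophil-like cluster led by Csf3r at 1735 CPM (1480 to 2021) and the F13a1 cluster at 1299 CPM. The intervals of the Cxcl9, B lineage-like and Csf3r groups overlapped. C1qa, C1qb and C1qc, genes of the macrophage-like cells, were counted beside it as a gauge of macrophage RNA in other droplets. There were 65.5 C1q UMIs per 100 Apoe UMIs in macrophage-like cells, 57.2 in conventional DC-like, 50.9 in T lineage-like and 46.0 in NK and ILC-like cells, but 16.6 in B lineage-like cells, 9.11 in the nonclassical cluster and 4.27 in the F13a1 cluster. The Cxcl9 cluster had 66.1, close to the macrophage-like value.

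Among cells with no C1q UMI at all, Apoe was 2331 CPM (2156 to 2517) in the nonclassical cluster, 1483 CPM in 178 B lineage-like cells and 1317 CPM in monocyte-like cells with classical markers. It was 123 CPM in T lineage-like, 137 in neutrophil-like, 61.7 in conventional DC-like, 61.0 in mature DC-like and 59.0 in NK and ILC-like cells. Cells without C1q held 657 of 933 Apoe UMIs of the nonclassical cluster, 733 of 820 in the F13a1 cluster and 548 of 809 in B lineage-like cells, but 333 of 711 in the Cxcl9 cluster, where their level was 1439.7 CPM. The levels of the other classes without C1q were lower. What part macrophage RNA in other droplets had in these levels was not tested. In the Csf3r cluster, at a median of 777 UMIs per cell, 3 of 99 cells held 93 of its 165 Apoe UMIs, and its cells without C1q had 430.1 CPM.

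**Figure D4:**
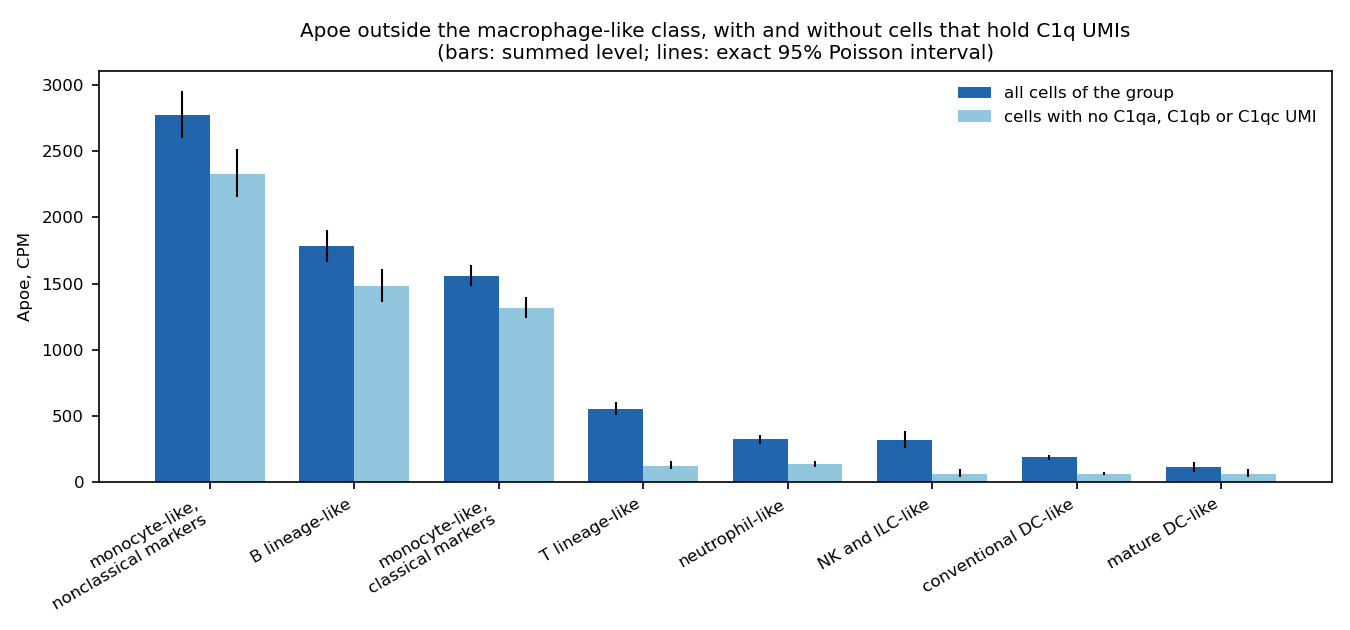
Apoe level (CPM, bars from 0) in 8 groups outside the macrophage-like class, over all cells of each group (dark) and over the cells without a C1qa, C1qb or C1qc UMI (light), with exact 95% Poisson intervals as lines. The light bars of monocyte-like and B lineage-like cells stand at 1317 CPM or more, and those of the other groups at 137 CPM or less.

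Apoc2, the cofactor that lipoprotein lipase needs, had its highest CPM in monocyte-like and not in macrophage-like cells. The nonclassical cluster held 547 CPM (471 to 632, 184 UMIs), the F13a1 cluster 176, the Cxcl9 cluster 94.2, the iron-handling cluster 113 (73.4 to 167) and the second macrophage-like cluster 186. Nonclassical monocyte-like cells thus had 3.29-fold more Apoc2 than macrophage-like cells (2.62 to 4.14) and 3.73-fold more than monocyte-like cells with classical markers (2.98 to 4.67). Relative to macrophage-like cells, Apoc2 was the 1 gene of the 9 that was at least 2-fold higher in the nonclassical cluster (background 3.91% of 6878 genes), and 6 were at least 2-fold lower (11.4%).

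Thinned to 2000 UMIs, 36.2% of 47 nonclassical monocyte-like cells held Apoc2 (22.7 to 51.5), against 21.1% of macrophage-like cells (15.3 to 27.9). These intervals overlapped. The thinned share was 17.6% in all monocyte-like cells (13.6 to 22.3) and 14.4% in those with classical markers. Unthinned, it was 28.5% in all monocyte-like and 22.1% in macrophage-like cells. Thinned neutrophil-like cells held Apoc2 in 4.06% and conventional DC-like cells in 0.624%. Of the 196 cells of the nonclassical cluster, 149 were too shallow to be thinned, and its unthinned share was 44.4%. Between the 2 kinds of monocyte-like cells, Apoc2 and Apoc1 were at least 2-fold higher in the nonclassical cluster (background 5.18% of 6391 genes), and 0 genes of the 9 were lower (3.94%). Apoc1 was 134 CPM there and 52.0 with classical markers, 2.57-fold higher (1.68 to 3.92). Apoc1 and Apoc2, near neighbours on chromosome 7, therefore peaked in different cells.

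**Figure D5:**
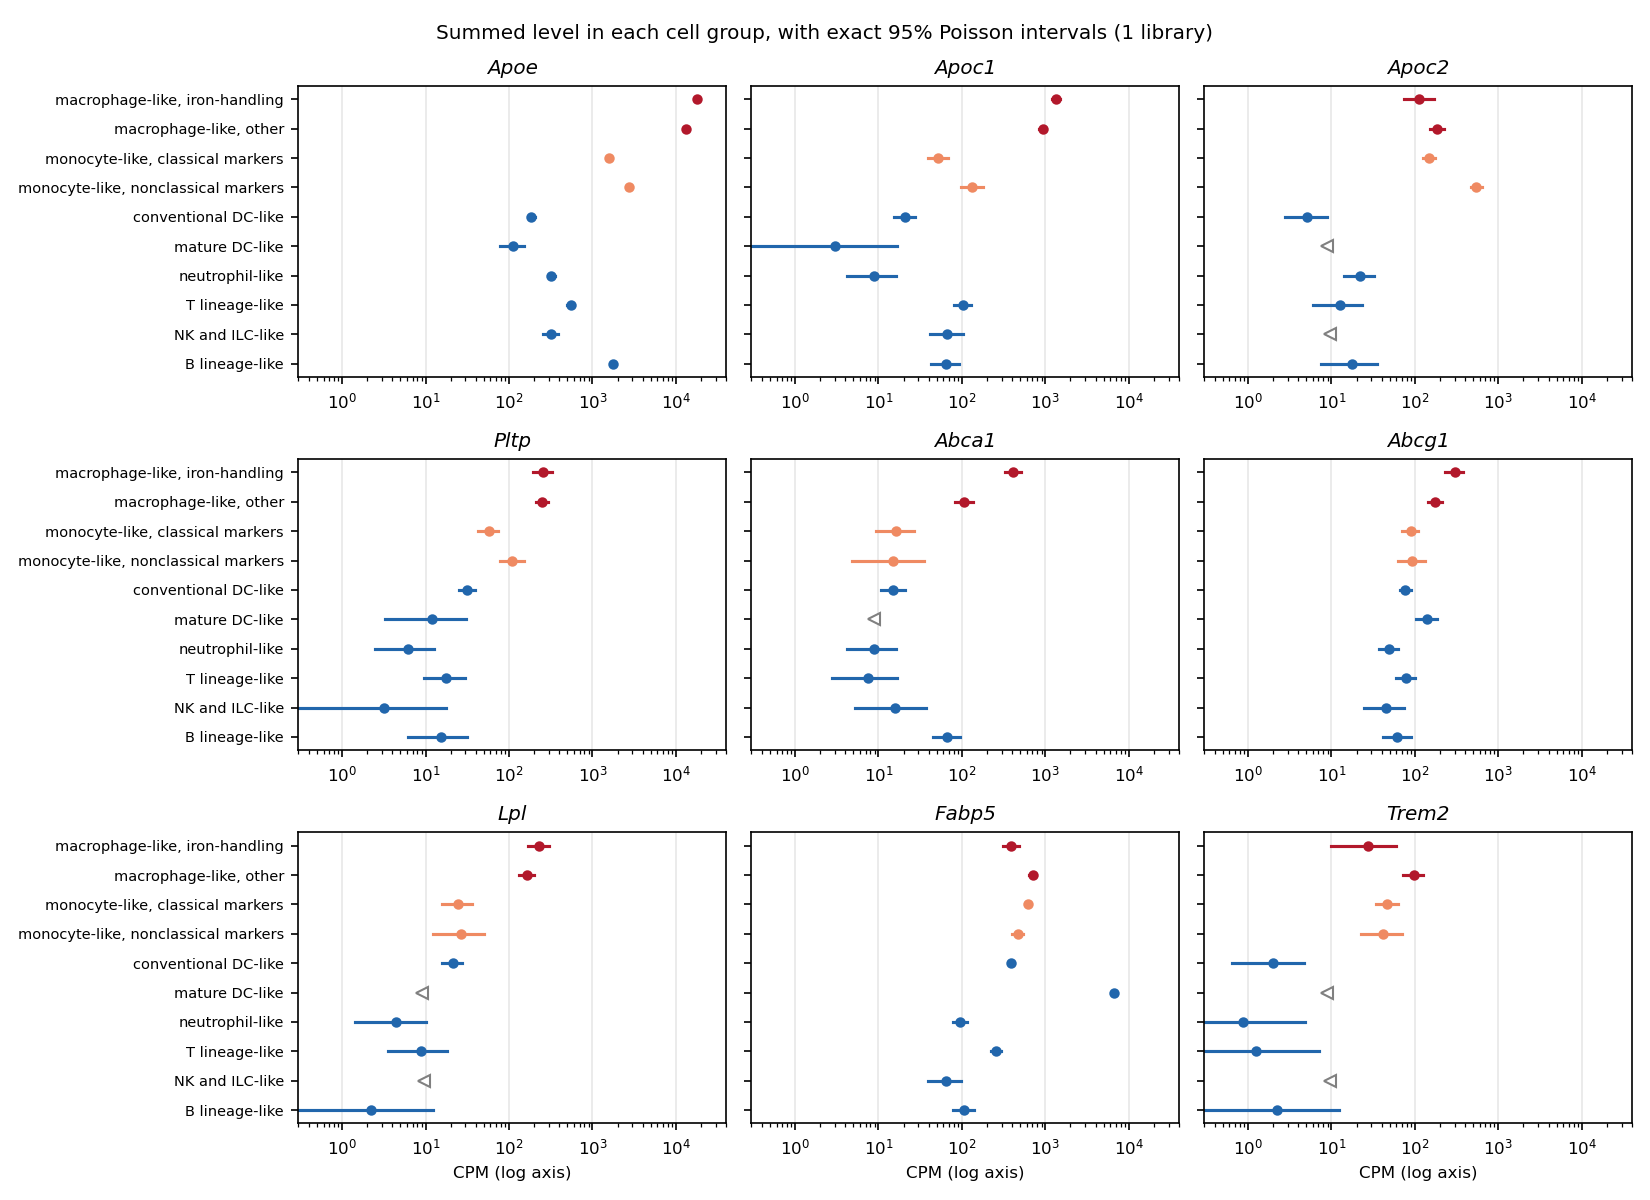
CPM (log axis) of each of the 9 genes, 1 panel each, in macrophage-like (red), monocyte-like (orange) and other groups (blue), with exact 95% Poisson intervals. Open triangles stand where no UMI was seen, at the level that 3 UMIs would give. The red points of Apoe, Apoc1, Pltp and Lpl stand clear of all others, and Apoc2 and Fabp5 peak elsewhere.

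Abca1, which loads cholesterol and phospholipid onto lipid-poor apolipoproteins, was the 1 gene of the 9 at least 2-fold higher in the iron-handling cluster than in the other macrophage-like cells (background 8.82% of 5919 genes). Its levels were 413 CPM (333 to 507, 91 UMIs) and 106 CPM (81.8 to 136, 63 UMIs), a ratio of 3.88 (2.78 to 5.44). A UMI of Abca1 was seen in 66.2% of the 74 iron-handling cells and 22.8% of the 202 others, or 56.2% and 16.5% after thinning. Every alternative tried kept this ratio above 2-fold, with log2 values from 1.57 to 2.31.

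In 5 alternatives between 1 and 3 further genes passed 2-fold in the iron-handling cluster, Apoc1 in each of them, Apoe in 2 and Lpl in 1. In those 5 settings the macrophage-like class held 356 to 383 cells. The log2 ratio of Apoc1, 0.54 here, ran from 0.47 with centring to 3.26 with the stricter cell filter. Among the other classes, Abca1 was second highest in B lineage-like cells, at 66.0 CPM (44.5 to 94.3), 8.72-fold over T lineage-like cells (3.57 to 25.6, from 30 and 6 UMIs). Between these lymphocyte classes, Apoe and Abca1 of the 7 genes with enough UMIs were at least 2-fold higher in B lineage-like cells (background 4.92% of 7374 genes). Fabp5 alone of the 7 was lower, where 28.2% of all genes were, and the median log2 ratio of all genes was -0.57.

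Abcg1, which passes cholesterol to mature high-density lipoproteins, was the most evenly spread of the 9. It was 299.5 CPM in the iron-handling cluster and 176 in the other macrophage-like cells (ratio 1.70, 1.23 to 2.34). Mature DC-like cells had 140.2 CPM, and a T lineage-like cluster led by Rag1 had 201 CPM at a median of 619 UMIs per cell. The classes ran from 209 CPM in macrophage-like to 35.8 in the unnamed cluster, and in that order each class's interval overlapped that of the next.

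Pltp, which moves phospholipid between lipoproteins, was at similar levels in the iron-handling cluster (254 CPM) and the other macrophage-like cells (247 CPM; ratio 1.03, 0.743 to 1.41). With classes from UMIs of fixed genes that log2 ratio was 0.80, against 0.04 here. Pltp was 612 CPM in the 23 cells of the Slpi sub-cluster, from 49 UMIs in 65.2% of cells, and 188 to 203 CPM in the Ccl12 and Fcna sub-clusters. Among monocyte-like cells it was 143 CPM in the Cxcl9 cluster, 109.99 in the nonclassical cluster and 9.51 in the F13a1 cluster.

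Lpl, which frees fatty acids from lipoprotein triglyceride, was 227 CPM (168 to 299) in the iron-handling cluster and 164 in the other macrophage-like cells, with intervals that overlapped. Next came monocyte-like cells at 25.04 CPM and conventional DC-like cells at 21.1. Of the 53 Lpl UMIs of conventional DC-like cells, 41 came from 3 cells, and without these the level was 4.80 CPM. In the nonclassical cluster 3 cells held 7 of 9 UMIs. Mature DC-like and NK and ILC-like cells had no Lpl UMI, where 3 UMIs would have given 8.95 and 9.55 CPM.

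Trem2, a receptor for lipids and apolipoproteins that signals through Tyrobp, was counted sparsely, with 140 UMIs in all kept cells. The iron-handling cluster held 6 of them in 74 cells (27.2 CPM, 9.99 to 59.3) and the other macrophage-like cells 57 (96.3 CPM, 72.9 to 125), so that Trem2 was 3.54-fold lower in the former (1.53 to 10.0). It was the 1 gene of the 9 at least 2-fold lower there (background 5.39%). This difference shrank to a log2 ratio of -0.36 with the stricter cell filter, to -0.95 without the cells of the highest doublet scores and to -0.07 where cells were classed by UMIs of fixed genes, against -1.51 here. Among monocyte-like cells Trem2 was 65.0 CPM in the F13a1 cluster, 41.6 in the nonclassical cluster and 14.3 in the Cxcl9 cluster. All other named classes held 0 to 5 Trem2 UMIs.

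Fabp5, an intracellular carrier of fatty acids, was a gene of mature DC-like cells, which carry Ccr7, Ccl22 and Fscn1. It stood at 6601 CPM there (6328 to 6882, 2212 UMIs), 18.2-fold over all other kept cells (17.2 to 19.3). Thinned to 2000 UMIs, 94.4% of 90 mature DC-like cells held Fabp5 (87.5 to 98.2), at quartiles of 5.25, 11 and 18.8 UMIs. Macrophage-like cells held it in 50.9%, conventional DC-like in 31.5%, T lineage-like in 38.6% and neutrophil-like in 11.7% of thinned cells. The next class was the macrophage-like at 623 CPM, followed by the monocyte-like at 574, whose intervals overlapped.

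In mature DC-like cells Fabp5 was the 1 gene of the 9 at least 2-fold higher than in all other cells (background 5.51%), and 7 were at least 2-fold lower (14.2%), with Abcg1 in between (1.71-fold higher, 1.24 to 2.30). Apoe was 18.4-fold lower there (13.4 to 26.2). No UMI of Apoc2, Abca1, Lpl or Trem2 was seen in the 116 mature DC-like cells, so that these genes were at least 7.27-fold, 3.68-fold, 3.53-fold and 1.91-fold lower than in the rest, taking 3 UMIs in the class as the floor. The rest include the macrophage-like cells, which held 69.9% of all Apoe UMIs. Conventional DC-like cells had 186 CPM of Apoe, against 110 in mature DC-like cells. They had 5.17 CPM of Apoc2, 15.1 of Abca1, 21.1 of Lpl and 1.99 of Trem2. NK and ILC-like cells likewise had no UMI of Apoc2, Lpl or Trem2. Within the macrophage-like cells, Fabp5 was lower in the iron-handling cluster (386 CPM) than in the others (711 CPM), a ratio of 0.542 (0.424 to 0.686). That log2 ratio was 0.01 where cells were classed by UMIs of fixed genes.

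The other lipid genes were counted from 7 lists, macrophage-like against all other kept cells, beside the background of 5.78% higher and 2.33% lower. Of 12 tested genes of lysosomal lipid breakdown, 9 were at least 2-fold higher and 0 lower (median log2 ratio 1.52), among them the lysosomal acid lipase Lipa (154 against 29.5, 5.22-fold) and the granulin precursor Grn (746 against 202, 3.70-fold), with Gm2a lowest (1.15-fold). Of 10 tested genes in the list of uptake receptors and related proteins, 6 were higher and 0 lower (median 1.496). The higher ones included Scarb2 (4.35-fold), Stab1 (36.3-fold, from 23 and 6 UMIs) and Lrp1 (3.94-fold), a receptor of Apoe, and Sorl1 was lowest (0.877-fold).

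Of 16 genes of cholesterol synthesis and uptake, 0 were at least 2-fold higher or lower (median -0.09). Hmgcs1 had the highest ratio (1.76-fold), Insig1 stood at 1.48-fold, and Cyp51 had the lowest (0.276-fold, 0.0560 to 0.829, from 3 and 103 UMIs). Of 11 liver X receptor genes and other targets, 2 were higher and 0 lower (median 0.53): Nr1h3, which encodes liver X receptor alpha (87.4 against 9.62 CPM, 9.09-fold), and Mylip (2.90-fold). Rxra was 2.37-fold higher by its levels but did not pass with 10 CPM added, and Abca7 was lowest (0.568-fold).

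Of 14 tested genes of cholesterol esters, lipid droplets and fatty acids, 3 were higher and 1 lower (median 0.37). The higher ones were Fabp4 (5.44-fold), the fatty acid receptor Pparg (10.8-fold, from 25 and 22 UMIs) and Nceh1 (4.43-fold), and the lower one was Dgat1, the acyltransferase of triglyceride synthesis (0.304-fold). Fabp4 was also among the leading genes of the nonclassical monocyte-like cluster. Of 13 tested genes tied to Trem2 signalling and lipid-associated macrophages, 4 were higher and 0 lower (median 0.81), including Igf1 (36.6-fold), Ctsd (8.69-fold) and Ctsb (7.87-fold), with Cd9 lowest (0.553-fold). Of 8 tested other apolipoprotein and lipoprotein enzyme genes, 1 was higher and 1 lower (median -0.14): Abcg3 (4.10-fold), and Apod (0.0987-fold, 0.00247 to 0.563, from 1 and 96 UMIs). Abca9 (3.42-fold) and Apol7c (1.73-fold) did not pass.

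Over the 18 clusters of at least 20 cells, Pearson correlations of log2(CPM + 10) were computed as a description; the clusters share 1 library and differ in depth. The most alike pair of the 9 genes was Pltp and Lpl (r = 0.90), followed by Apoe and Apoc1 (0.87) and by Apoc2 and Trem2 (0.86). Fabp5 had its highest r with Abcg1 (0.42). Among 6706 genes with at least 100 UMIs, the nearest to Apoe were Ms4a7 (0.93), Igf1 (0.92) and Selenop (0.92), and the nearest to Apoc1 were Selenop (0.92), Igf1 (0.92) and Glul (0.92). The nearest to Apoc2 were Treml4 (0.90), Tlr7 (0.90) and Arhgef10l (0.89), and to Trem2 Msr1 (0.89), Gm1673 (0.89) and Fn1 (0.88).

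Pltp was nearest to Tmem86a (0.92), Axl (0.91) and Acp2 (0.91), and Lpl to Pla2g15 (0.92), Adgre1 (0.92) and Axl (0.91). Abca1 was nearest to Igf1 (0.88), Cd38 (0.88) and Vcam1 (0.86), Abcg1 to Sqstm1 (0.87), Jun (0.87) and Ppp1r15a (0.86), and Fabp5 to Brk1 (0.87), Iscu (0.86) and Rala (0.83). Across single macrophage-like cells, Apoe and Apoc1 had a rho of 0.25, as given above, and of 0.41 within the 48 thinned cells of the iron-handling cluster. Pltp and Lpl were found together in 12 of 175 thinned cells, where 12.8 were expected from their separate frequencies, and Apoc2 and Trem2 in 6, where 5.29 were expected.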

How the data were processed

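Cells of the adult mouse thymus were digested, sorted for CD64 and prepared with the 10x Genomics Chromium 3′ chemistry, per the labels' protocols. The unit is the unnormalised UMI count of each gene in each barcode, as deposited by the authors. The submitters' processing notes name Cell Ranger 6.0.0 and mm10 for this library. Intron and strand settings are not given in the sources used here. The chemistry reads transcript 3′ ends, and free RNA can enter any droplet.

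Barcodes with at least 500 UMIs, 300 genes and at most 10% mitochondrial UMIs were kept (3188), and 3 doublets called by Scrublet were removed. Counts were scaled to 10000 per cell and clustered with scanpy 1.11.5 (2000 variable genes without the 9 genes, 30 components, 15 neighbours, Leiden resolution 1, igraph 0.11.9). Classes needed at least 3 raised markers, and names are rebuilt here, so they can differ from the study's. Levels are summed UMIs per 1000000 with exact Poisson intervals, shares carry exact binomial intervals, and ratios carry exact conditional binomial intervals (scipy 1.17.1). Shares compared across depths come from cells thinned to 2000 UMIs, which left out 101 of 276 macrophage-like cells. Comparisons used genes with at least 15 UMIs, and at least 2-fold refers to log2 of CPM plus 10. Functions were tested on simulated data.

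All 9 genes are named. Named with them are the 3 genes most alike to each over clusters, and the 3 highest and 1 lowest of each list, of which 2 are not reported here. Clec7a and Cetp of the lists were not matched. The members and lists were chosen with earlier results of these data known. The second library (2815 barcodes, median 5312 UMIs) gave depth only.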

Additional observations from a re-analysis of the deposited data

How the results depend on the processing

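Alternatives were a laxer and a stricter cell filter, other doublet handling, resolutions of 0.5 and 1.5, clustering with the 9 genes, classes from UMIs of fixed genes, 1 or 50 CPM added before log2, centring, and less or no thinning. The Apoe level of macrophage-like cells, 14347 CPM, was 14887 with no cell filter, 8232 with the stricter filter, 11233 with doublets kept, 11418 without the 6% of cells with the highest doublet scores, 11163 and 11028 at resolutions 0.5 and 1.5, 10379 with classes from UMIs, 14025 less the neutrophil-like level, and 14783 without the 12 cells with T and NK genes, an alternative chosen after seeing the data. The class then held between 264 and 389 cells. The count of genes at least 2-fold higher than in all other cells was 7 or 8, and against monocyte-like cells 5 or 6. In the iron-handling cluster it was 4 with the stricter filter, 3 without the cells of high doublet scores, and 2 with doublets kept and at resolutions 0.5 and 1.5, where 10.4% to 13.8% of all genes passed. Values of single genes moved beyond their counting interval in 88 of 315 cases. No single-gene ratio past 2-fold changed sign. Among the others, the iron-handling log2 ratio of Apoc2 (-0.67) was 0.39 with the stricter filter and that of Fabp5 (-0.87) was 0.01 with classes from UMIs, and the ratios of Fabp5 against all other cells and of Pltp within the class, both near 0, took either sign.

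The remaining results were added after seeing the data. The log2 ratio of Fabp5 in mature DC-like cells, 4.15, was 3.99 with no filter, 4.03 with the stricter filter and with doublets kept, 4.01 with 50 CPM added, and 4.45 when centred, since the median gene there lay at -0.30. The log2 ratio of Apoc2, nonclassical monocyte-like over macrophage-like, 1.66, was 2.11 with no filter, 2.27 with the stricter filter, 2.24 without high doublet scores, 2.03 with classes from UMIs and 1.03 at resolution 0.5. The relative Apoc1 to Apoe ratio of the Ccl12 sub-cluster, 0.166, was 0.119, 0.122 and 0.797 as described above. The cause of these shifts was not tested.

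No paired analysis was possible because gene names were used for 1 library only, and for the same reason no library could be left out. Outside the macrophage-like class Trem2, Abca1 and Lpl rest on at most 60 UMIs per class, so that a ratio such as the 11.9-fold of Abca1 over monocyte-like cells has an interval from 7.52 to 19.8.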
